A study of Saccharomyces cerevisiae with 12 samples.

Results

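The genes described here encode the prohibitins and the proteases of yeast mitochondria. They are PHB1 (YGR132C) and PHB2 (YGR231C), YME1 (YPR024W) with its adaptor MGR1 (YCL044C), AFG3 (YER017C, also written YTA10) and YTA12 (YMR089C), PIM1 (YBL022C), OMA1 (YKR087C), PCP1 (YGR101W) and CYM1 (YDR430C). Members were taken by name from the annotation of the array, and where a gene had several probe sets the one with the highest mean signal over 12 arrays was to stand for it. All 10 were found among the 5656 genes with a probe set of their own, each with 1 probe set, and none of these probe sets is marked by its name as shared by similar transcripts. All 10 belonged to the 5361 genes tested, and all 120 of their signals exceeded the detection level of 5.82, the 25th percentile of all signals, with a lowest value of 6.56 for CYM1.

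RNA came from budding yeast (Saccharomyces cerevisiae) in 4 groups of 3 biological replicates, each on an array of its own: ρ0 cells without glucose, ρ0 cells in glucose, ρ+ cells without glucose and ρ+ cells in glucose. ρ0 cells lack mitochondrial DNA and ρ+ cells carry it. All cultures grew at 22 °C in complete medium with 2% glucose to early log phase, at an optical density of 1. One part of every culture was harvested there, and the other was spun down, washed and shaken for 4 h in the medium without glucose. The sources used here do not give the strain, its genotype or the way mitochondrial DNA was lost. No group was washed and shaken with glucose present, so that loss of the sugar cannot be told apart from handling or from the later time of harvest.

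Mitochondria keep a set of proteases in separate compartments. Pim1, the Lon protease, degrades damaged soluble proteins in the matrix. Afg3 and Yta12 form the m-AAA protease, an ATP-driven complex of the inner membrane with its active sites in the matrix, and Yme1 forms the i-AAA protease, which faces the intermembrane space and binds substrates with the help of Mgr1 and Mgr3. Phb1 and Phb2 assemble into large prohibitin rings in the inner membrane, which associate with the m-AAA protease. Oma1 is a metallopeptidase of the inner membrane, Pcp1 is the rhomboid protease that processes Mgm1 and Ccp1, and Cym1 degrades targeting peptides after their removal from imported proteins. YME1 and MGR1 are known in yeast as genes whose loss makes cells depend on mitochondrial DNA.

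The measured value was the deposited MAS5 signal, the summarised brightness of a probe set in arbitrary units. The precision is limited by 3 arrays a group. For a comparison of 2 groups, the median standard error of the log2 differences of all genes tested was 0.21. Among the 10 genes the standard error ran from 0.16 for YME1 to 0.26 for CYM1. As a check of the strains, OLI1, a gene of mitochondrial DNA, gave 0.196 to 0.435 on the 6 ρ0 arrays and 100.3 to 159 on the 6 ρ+ arrays. Some array controls moved with the groups. For SPT15, the signal of the 5′ probe set divided by that of the 3′ one, which reads how complete RNA or cDNA was, averaged 0.140 ± 0.042 in ρ0 without glucose, 0.249 ± 0.131 in ρ0 in glucose, 0.188 ± 0.0058 in ρ+ without glucose and 0.319 ± 0.070 in ρ+ in glucose (SD, n = 3 each). The mean log2 signal of the ribosomal RNA controls was 8.35 ± 0.52, 7.52 ± 0.38, 8.61 ± 0.11 and 7.29 ± 0.28 in ρ0 without glucose, ρ0 in glucose, ρ+ without glucose and ρ+ in glucose (SD, n = 3 each). ρ0 glucose replicate 2 and ρ0 no glucose replicate 1 had the lowest signals of the hybridization control CreX, 285 and 487, against 525 to 869 on the other 10 arrays. The part of these controls in the results below was not tested. For the poly-A controls, used for scaling in an alternative fit, the mean log2 signal was 3.57 ± 0.20, 3.55 ± 0.046, 3.67 ± 0.032 and 3.75 ± 0.34, with the groups in the same order (SD, n = 3 each). That level is dim, as the group means of CYM1, the dimmest member, were 3.56 to 4.05, so that scaling to these controls rests on weak signals. The median log2 difference of all genes on the authors' scale was −0.11 for withdrawal in ρ0, −0.19 for withdrawal in ρ+, 0.21 for ρ0 against ρ+ without glucose and 0.13 in glucose, and values called relative to the median gene have it subtracted.

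The matrix and intermembrane space proteases PIM1 and YME1, and the adaptor gene MGR1, were the members that rose after glucose withdrawal, and they did so in ρ+ cells. In ρ0 cells no member passed the test. The direct test of whether ρ0 and ρ+ responded differently did not pass for PIM1 (limma adjusted p = 0.145) or YME1 (0.112). It passed for MGR1 (0.0496), but in only 2 of 12 repeats that left out 1 array. The RNA was of whole cultures, so that a change in some cells and a smaller change in all cells cannot be told apart. Between the strains, PIM1 was higher in ρ0 than in ρ+ in glucose, YTA12 was higher in ρ0 without glucose, and YME1, OMA1 and MGR1 were lower there. The rise of YME1 in ρ+ and the difference of OMA1 were each lost in 8 of 12 repeats that left out 1 array. The prohibitin genes, AFG3, PCP1 and CYM1 passed in none of the 5 comparisons.

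**Figure D1:**
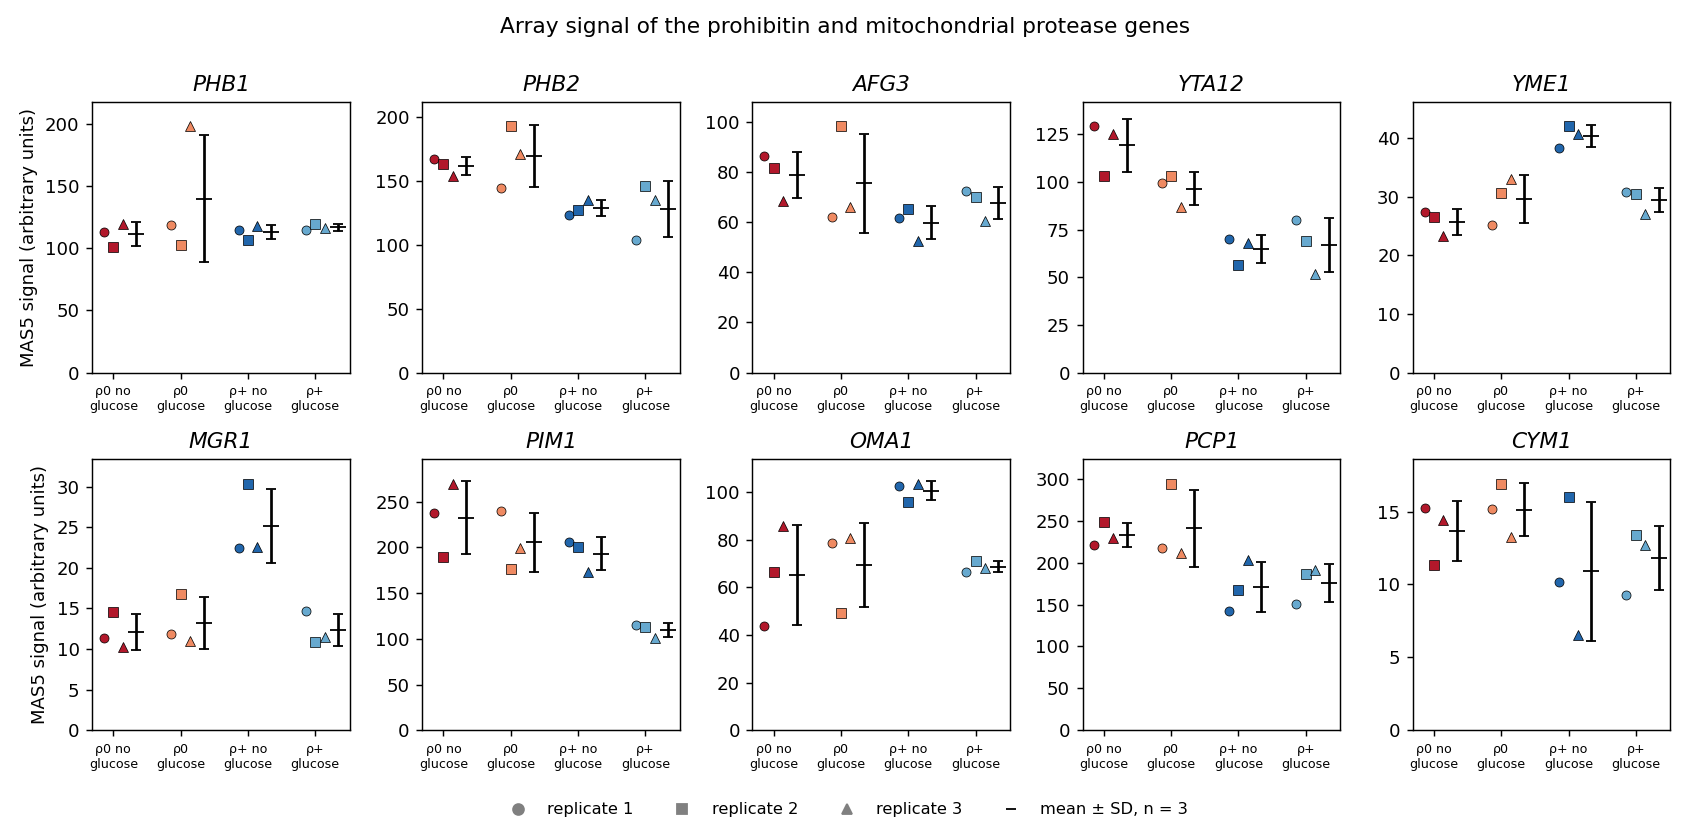
MAS5 signal (vertical axis, arbitrary units, from 0) of each of the 10 genes in the 4 groups. Coloured points are single arrays, their shape gives the replicate number, and black bars give the mean ± SD of 3 arrays. MGR1, YME1 and OMA1 are highest on the 3 arrays of ρ+ cells without glucose, and PIM1 is lowest on the 3 arrays of ρ+ cells in glucose.

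PIM1 gave signals of 238, 190.0 and 269.7 in ρ0 without glucose, 240.2, 176 and 199.97 in ρ0 in glucose, 206, 200.5 and 173 in ρ+ without glucose, and 115, 113 and 101 in ρ+ in glucose. The ρ+ arrays in glucose were low and did not overlap with any other group, while the other 3 groups overlapped with each other. PIM1 rose 1.75-fold after withdrawal in ρ+ (log2 0.81 ± 0.18 SE, limma adjusted p = 0.00316), and 0.995 relative to the median gene. In glucose it was 1.85-fold higher in ρ0 than in ρ+ (log2 0.89 ± 0.18, limma adjusted p = 0.00757), and 0.76 relative to the median gene. Both calls held without any single array. Its difference between ρ0 and ρ+ without glucose was 0.26 ± 0.18 (limma adjusted p = 0.286), and that after withdrawal in ρ0 was 0.17 ± 0.18, which is smaller than its standard error (adjusted p = 0.531). The responses of ρ0 and ρ+ differed by −0.63 ± 0.25 (limma adjusted p = 0.145), which did not pass.

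YME1 gave 27.3, 26.5 and 23.2 in ρ0 without glucose, 25.1, 30.7 and 32.9 in ρ0 in glucose, 38.4, 42.0 and 40.7 in ρ+ without glucose, and 30.8, 30.5 and 27.1 in ρ+ in glucose. The 3 ρ+ arrays without glucose were the highest of the 12 and overlapped with no other group, and the other 3 groups overlapped. Without glucose YME1 was 1.54-fold lower in ρ0 than in ρ+ (log2 −0.62 ± 0.16, limma adjusted p = 0.0098), a call that held without any single array. It was lost with scaling to the poly-A controls (adjusted p = 0.0999). It rose 1.35-fold after withdrawal in ρ+ (log2 0.44 ± 0.16, limma adjusted p = 0.0489). The rise did not pass when ρ+ glucose replicate 1 (adjusted p = 0.0751), 2 (0.0965) or 3 (0.157) was left out, nor when ρ+ no glucose replicate 1 (0.0794), 2 (0.115) or 3 (0.102) was. The same held on leaving out ρ0 no glucose replicate 1 (0.0548) or 2 (0.0523), with poly-A scaling (0.132) and without the filter on dim genes (0.0545). In glucose the mean signal was 29.6 ± 4.04 in ρ0 and 29.5 ± 2.08 in ρ+ (SD, n = 3 each), a difference within the spread of the replicates.

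MGR1, for the adaptor that hands substrates to Yme1, had signals of 11.3, 14.6 and 10.3 in ρ0 without glucose, 11.8, 16.8 and 10.9 in ρ0 in glucose, 22.4, 30.3 and 22.6 in ρ+ without glucose, and 14.6, 10.9 and 11.5 in ρ+ in glucose. As for YME1, the ρ+ arrays without glucose stood above all 9 others, which overlapped. MGR1 rose 1.92-fold after withdrawal in ρ+ (log2 0.94 ± 0.21, limma adjusted p = 0.00416). Without glucose it was 1.96-fold lower in ρ0 than in ρ+ (log2 −0.97 ± 0.21, limma adjusted p = 0.00394). Both calls held without any single array and under every other alternative run. Of the 10 members only MGR1 passed the test of whether ρ0 and ρ+ responded differently to withdrawal, with a difference, ρ0 minus ρ+, of −1.05 ± 0.30 (limma adjusted p = 0.0496). That call passed in 2 of 12 repeats that left out 1 array, which omitted ρ0 glucose replicate 3 (adjusted p = 0.0447) and ρ0 no glucose replicate 2 (0.0421). In the other 10 repeats, each without 1 of the 6 ρ+ arrays, ρ0 glucose replicate 1 or 2, or ρ0 no glucose replicate 1 or 3, the adjusted p lay between 0.0525 and 0.126, and the difference itself stayed between −1.16 and −0.88. It was also lost without both arrays of low CreX signal (0.138), with quantile normalization (0.0584), median centring (0.0595) or poly-A scaling (0.11), and without the filter on dim genes (0.0521). YME1 differed by −0.62 ± 0.23 in the same test (adjusted p = 0.112). MGR3, for the partner adaptor, gave 27.9 ± 1.66 in ρ0 and 17.5 ± 1.23 in ρ+ without glucose (SD, n = 3 each), and was 1.55-fold higher in ρ0 (log2 0.63 ± 0.16, limma adjusted p = 0.00817), the opposite direction to MGR1. With median centring this MGR3 call was lost (log2 0.44, adjusted p = 0.0688).

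OMA1 gave 43.7, 66.4 and 85.8 in ρ0 without glucose, 78.8, 49.2 and 80.7 in ρ0 in glucose, 102, 96.0 and 103 in ρ+ without glucose, and 66.7, 71.2 and 68.2 in ρ+ in glucose. Within ρ+ the arrays without glucose lay above those in glucose, and they lay above all ρ0 arrays. The lowest ρ0 values in each medium, 43.7 and 49.2, came from the arrays with the lowest CreX signals, while ρ+ no glucose replicate 2, with a CreX signal of 525, gave 96.0. OMA1 was 1.58-fold lower in ρ0 than in ρ+ without glucose (log2 −0.66 ± 0.23, limma adjusted p = 0.041). Without ρ0 no glucose replicate 1 this was −0.41 (adjusted p = 0.191), and without both arrays of low CreX signal −0.41 (0.0928). Leaving out ρ+ glucose replicate 1 (0.0526), 2 (0.0561) or 3 (0.0543) likewise ended the call. So did leaving out ρ+ no glucose replicate 1 (0.0939), 2 (0.0703) or 3 (0.0988) or ρ0 no glucose replicate 2 (0.0707), and poly-A scaling (0.175). The difference after withdrawal in ρ+ was 0.54 ± 0.23 (limma adjusted p = 0.0837). It did pass without both arrays of low CreX signal (adjusted p = 0.0137), with either of them left out alone (0.0446 for ρ0 glucose replicate 2, 0.0472 for ρ0 no glucose replicate 1), in a fit to the 2 ρ+ groups (0.00866) and after median centring (0.0179).

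**Figure D2:**
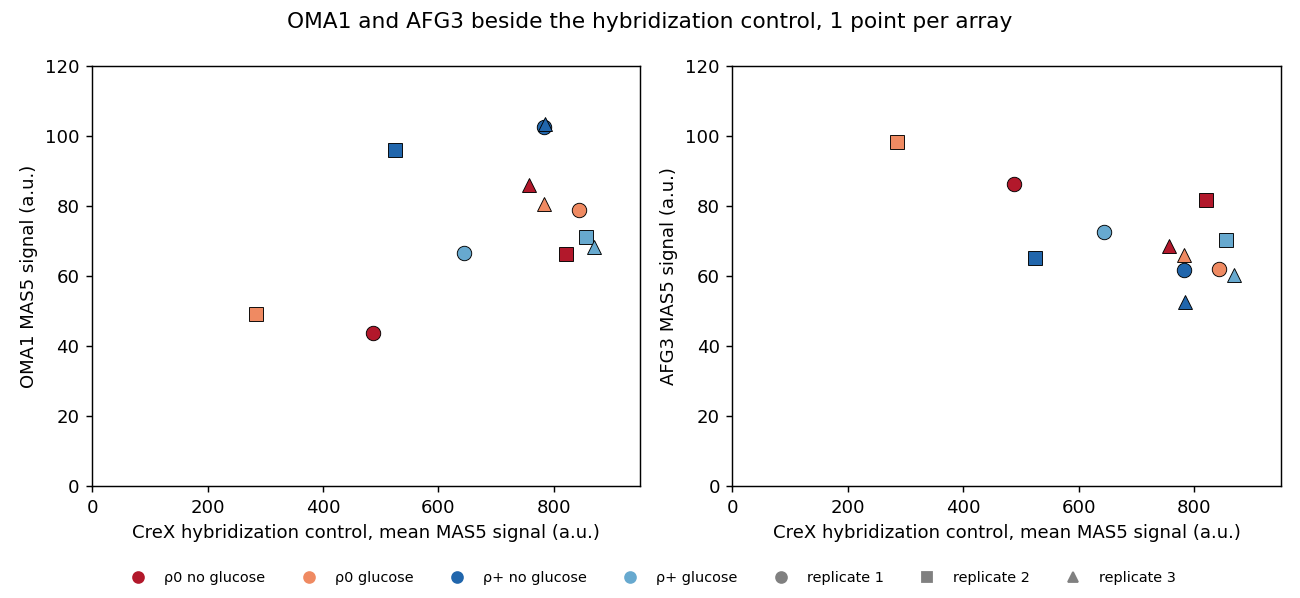
Signal of OMA1 (left) and AFG3 (right) on each of the 12 arrays, against the mean signal of the CreX hybridization control on the same array (both in arbitrary units, axes from 0). The arrays with CreX signals of 285 and 487 carry the lowest OMA1 signals, 49.2 and 43.7, and the highest AFG3 signals, 98.3 and 86.3.

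Of the m-AAA subunit genes, YTA12 passed in 1 comparison and AFG3 in none, and whether they differed from each other was not tested. YTA12 gave 129, 103 and 125 in ρ0 without glucose, 99.4, 103 and 86.9 in ρ0 in glucose, 70.03, 56.7 and 67.9 in ρ+ without glucose, and 79.8, 69.2 and 51.7 in ρ+ in glucose. All 6 ρ0 arrays lay above all 6 ρ+ arrays. Without glucose YTA12 was 1.82-fold higher in ρ0 (log2 0.86 ± 0.19, limma adjusted p = 0.0033), and 0.65 relative to the median gene. That call held under every alternative run. In glucose the difference was 0.54 ± 0.19 (limma adjusted p = 0.092), which passed with poly-A scaling only (0.73, adjusted p = 0.0469). After withdrawal it differed by 0.30 ± 0.19 in ρ0 (adjusted p = 0.286), and by less than its standard error in ρ+.

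AFG3 had 86.3, 81.7 and 68.5 in ρ0 without glucose, 62.02, 98.3 and 66.1 in ρ0 in glucose, 61.8, 65.1 and 52.5 in ρ+ without glucose, and 72.5, 70.2 and 60.4 in ρ+ in glucose. The strains did not overlap without glucose, where ρ0 differed from ρ+ by 0.39 ± 0.19 (limma adjusted p = 0.132), and overlapped in glucose. The signal of YTA12 divided by that of AFG3 on the same array averaged 1.53 ± 0.28 in ρ0 without glucose, 1.32 ± 0.28 in ρ0 in glucose, 1.10 ± 0.21 in ρ+ without glucose and 0.98 ± 0.12 in ρ+ in glucose (SD, n = 3 each), with single arrays of the strains overlapping in both media. The ratio compares brightness and not copies of the transcripts.

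No difference passed for the prohibitin genes. PHB1 gave 113, 101 and 119.8 in ρ0 without glucose, 119, 102 and 198 in ρ0 in glucose, 115, 107 and 117 in ρ+ without glucose, and 114, 119.8 and 116 in ρ+ in glucose. Apart from the single value of 198 in ρ0 glucose replicate 3, its signals lay between 101 and 119.8 on all arrays. It had the narrowest range of group means of the 10 genes, 0.27 on the log2 scale. Its difference after withdrawal in ρ0, −0.27 ± 0.21 (limma adjusted p = 0.392), was 0.0091 without that array. PHB2, the partner subunit, gave 167, 163 and 154 in ρ0 without glucose, 145, 193 and 171 in ρ0 in glucose, 123, 127 and 135 in ρ+ without glucose, and 104, 146 and 135 in ρ+ in glucose. The strains did not overlap without glucose and overlapped in glucose. PHB2 differed between ρ0 and ρ+ by 0.32 ± 0.17 without glucose (limma adjusted p = 0.16) and by 0.40 ± 0.17 in glucose (adjusted p = 0.167).

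PCP1, the rhomboid protease gene, gave 220.5, 249 and 229 in ρ0 without glucose, 218, 294 and 212 in ρ0 in glucose, 143, 168 and 203 in ρ+ without glucose, and 150.3, 186 and 191 in ρ+ in glucose. All ρ0 arrays lay above all ρ+ arrays. The differences between ρ0 and ρ+ of 0.45 ± 0.18 without glucose (limma adjusted p = 0.0734) and 0.44 ± 0.18 in glucose (adjusted p = 0.15) did not pass. The difference without glucose passed when the fit left out ρ0 glucose replicate 2 (adjusted p = 0.0456) and when it left out ρ+ no glucose replicate 3 (0.0489). CYM1, the dimmest member, gave 15.3, 11.3 and 14.4 in ρ0 without glucose, 15.2, 16.9 and 13.3 in ρ0 in glucose, 10.2, 16.0 and 6.56 in ρ+ without glucose, and 9.28, 13.4 and 12.7 in ρ+ in glucose. Its groups overlapped in each comparison of media and of strains. Differences between the strains were 0.35 ± 0.26 without glucose (limma adjusted p = 0.312) and 0.33 ± 0.26 in glucose (adjusted p = 0.459).

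**Figure D3:**
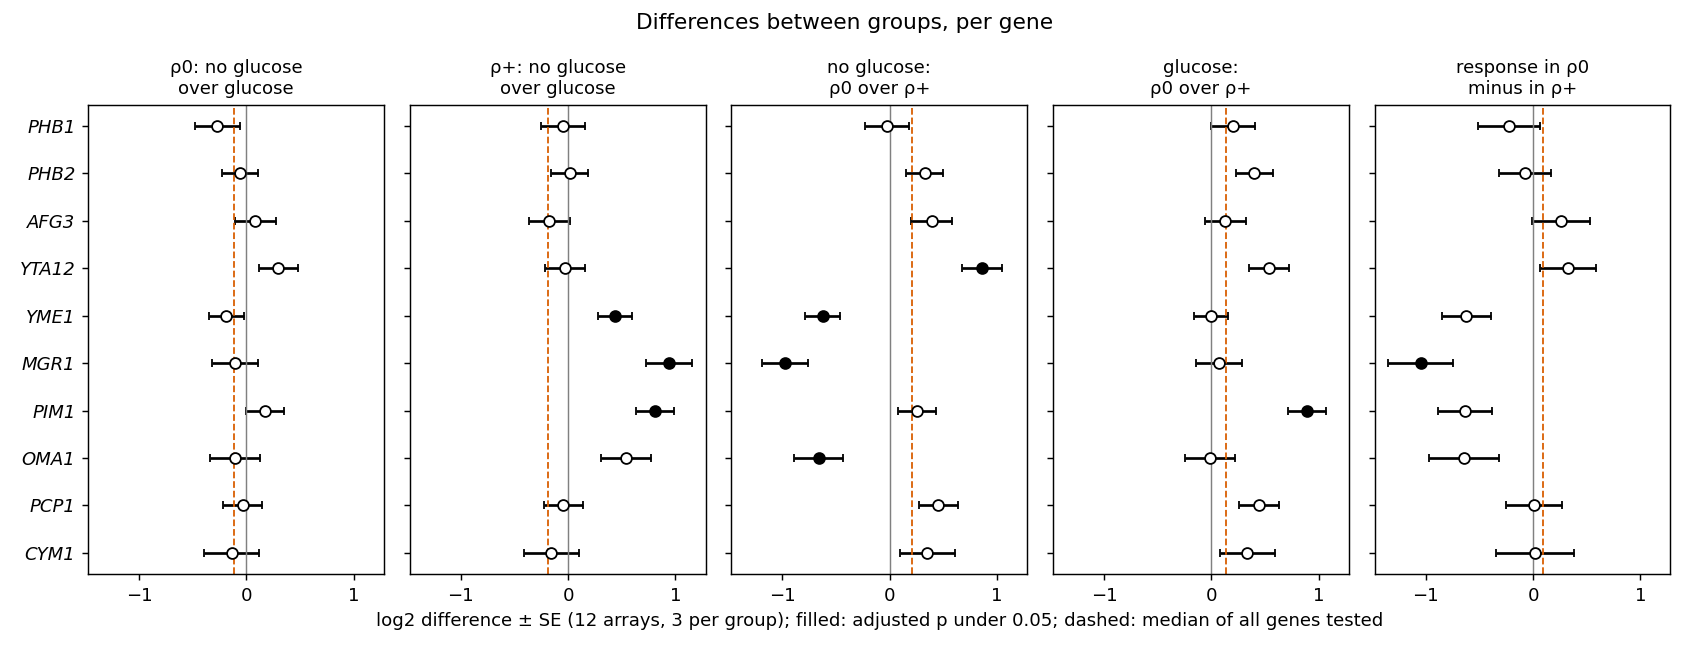
Log2 difference ± SE of each gene in the 5 comparisons, from a limma fit to 12 arrays. Filled points have an adjusted p under 0.05, and the dashed line is the median of all 5361 genes. Filled points are MGR1, PIM1 and YME1 for withdrawal in ρ+, YTA12 above and YME1, OMA1 and MGR1 below 0 for ρ0 against ρ+ without glucose, PIM1 in glucose and MGR1 for the difference of the responses.

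Counted over the members, withdrawal in ρ+ gave 3 higher and 0 lower of 10, where 32.7% of all genes tested were called, 10.5% higher and 22.3% lower. In ρ0, withdrawal gave 0 called of 10 with limma, where 17% of all genes were called, 4.59% higher and 12.4% lower. At an unadjusted p under 0.05 the count of members was also 0, and the share of all genes at that level was not computed. For ρ0 against ρ+ without glucose 1 was higher and 3 were lower, where 30% of all genes were called, 20.6% higher and 9.4% lower. In glucose 1 was higher and 0 lower, where 6.45% of all genes were called, 5% higher and 1.45% lower. The difference of the responses gave 1 lower and 0 higher, where 6.92% of all genes were called, 1.57% higher and 5.35% lower. The median log2 difference of the 10 genes was −0.08 for withdrawal in ρ0, −0.0059 for withdrawal in ρ+, 0.29 for ρ0 against ρ+ without glucose and 0.27 in glucose, against −0.11, −0.19, 0.21 and 0.13 for all genes. Groups did not overlap for 1 of the 10 genes for withdrawal in ρ0, where 30.6% of all genes did not, and for 4 for withdrawal in ρ+, where 51.6% did not. Between the strains they did not overlap for 7 genes without glucose and for 3 in glucose, where 44.9% and 30.7% of all genes did not. The comparisons share arrays, so that their counts are not independent. The split over all genes depends on the scale: with median centring 442 genes were higher and 740 lower in ρ0 without glucose, against 1102 and 504 on the authors' scale.

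Among the members, 2 pairs were most alike over the 12 arrays, as a description with arrays of a group not independent of each other. PHB2 and PCP1 had a Pearson correlation of 0.90 of their log2 signals, and YME1 and MGR1 of 0.85. AFG3 and YTA12 had 0.61 and PHB1 and PHB2 0.16. The lowest value, −0.84, was that of AFG3 and OMA1. The lowest OMA1 and highest AFG3 signals lay on the arrays of low CreX signal. The opposite extremes, OMA1 at 103 and AFG3 at 52.5, lay on ρ+ no glucose replicate 3, with a CreX signal of 785. Over all genes tested, the closest to MGR1 were CAT2 (0.96), DIF1 (0.94) and ATG42 (0.94), and the closest to PIM1 were PIN4 (0.94), MUD1 (0.93) and TOP2 (0.92). YTA12 was most like ABF1 (0.96), ULP1 (0.96) and ENP2 (0.95), and OMA1 was most like YUR1 (0.97), KRE9 (0.91) and SRY1 (0.90).

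Other genes of mitochondrial protein processing were set beside these 10. In a list of 11 further proteases and partners, 4 fell and none rose in ρ0, where 12.4% of all genes fell and 4.59% rose, and 3 fell and none rose in ρ+, where 22.3% fell and 10.5% rose. IMP1, a subunit of the inner membrane peptidase, fell 1.74-fold in ρ0, to 69.9 ± 4.63 without glucose against 123 ± 10.6 in glucose (limma adjusted p = 0.00242), and fell 1.85-fold in ρ+, to 74.5 ± 2.50 against 139 ± 5.29 (limma adjusted p = 0.000466; SD, n = 3 each). ATP23, for a metallopeptidase that processes the ATP synthase subunit Atp6, fell 2.44-fold in ρ0, to 16.4 ± 5.10 without glucose against 41.7 ± 9.91 in glucose (limma adjusted p = 0.00226). These 3 calls held without any single array and under the other alternatives. The other falls in ρ+ were less stable: that of ATP23 (limma adjusted p = 0.0491) was lost in 6 of 12 repeats that left out 1 array and under 6 of 9 other settings, and that of OCT1, a peptidase that trims imported proteins, in 4 of 12 and 2 of 9. OCT1 averaged 9.20 in ρ+ in glucose. Without glucose it averaged 4.61, with single arrays at 4.22 to 5.12, below the detection level of 5.82. For ρ0 against ρ+ without glucose, 1 of the 11 was higher and 2 were lower, where 20.6% of all genes were higher and 9.4% lower. One of the lower calls, IMP2, was lost in 5 of 12 repeats and under 2 of 9 settings. In glucose 2 were higher and none lower, where 5% of all genes were higher and 1.45% lower, and these calls were lost in 5 of 12 repeats and under 3 of 9 settings for ATP23, and in 4 of 12 and 3 of 9 for MAS1, a subunit of the processing peptidase. SOM1, for a subunit of the inner membrane peptidase like IMP1, was 1.68-fold lower in ρ0 without glucose (limma adjusted p = 0.00335). Its signal there was 36.7 ± 3.90 against 62.7 ± 6.05 in ρ+, but the call did not pass with poly-A scaling (adjusted p = 0.0518).

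Of 8 matrix chaperone genes 7 were tested, ECM10 being too dim. After withdrawal 3 fell and none rose in ρ0, and 1 fell and 1 rose in ρ+, where 12.4% of all genes fell in ρ0 and 22.3% fell and 10.5% rose in ρ+. ZIM17, which keeps the matrix Hsp70 soluble, fell 1.81-fold in ρ0, to 46.4 ± 4.45 without glucose against 85.5 ± 11.2 in glucose (limma adjusted p = 0.00508), a call that held under every alternative run. Its fall in ρ+ was lost in 3 of 12 repeats that left out 1 array and under 3 of 9 other settings. The fall of HSP10, the co-chaperonin gene, in ρ0 was lost in 8 of 12 and 3 of 9, and its groups overlapped, while that of MDJ1 in ρ0 was lost in 1 of 12 repeats. HSP60, the chaperonin gene, rose 1.51-fold in ρ+, to 1681 ± 297 without glucose against 1107 ± 128 in glucose (limma adjusted p = 0.0119), but did not pass with ρ+ glucose replicate 3 left out (adjusted p = 0.0646), or with ρ+ no glucose replicate 2 left out (0.0587). Between the strains 1 chaperone gene was higher and 2 were lower in ρ0 without glucose, where 20.6% of all genes were higher and 9.4% lower, and 1 was higher in glucose, where 5% were. The higher gene was HSP78, for a matrix disaggregase, in both media, and its call was lost in 7 of 12 repeats and under 5 of 9 settings without glucose, and in 4 of 12 and 3 of 9 in glucose. MDJ1, a co-chaperone of the matrix Hsp70, was 1.93-fold lower in ρ0 without glucose, at 29.6 ± 7.46 against 58.8 ± 16.3 in ρ+ (limma adjusted p = 0.00641), a call that held under every alternative run.

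Of 5 genes for known substrates of these proteases, 3 fell after withdrawal in ρ0, where 12.4% of all genes fell, and 1 in ρ+, where 22.3% fell, and none rose in either. UPS2, a substrate of Yme1, fell in both, 2.39-fold in ρ0 to 35.4 ± 13.4 without glucose against 89.3 ± 39.1 in glucose (limma adjusted p = 0.0102), and 1.99-fold in ρ+ to 19.3 ± 1.45 against 40.03 ± 4.78 (limma adjusted p = 0.019). The ρ0 groups overlapped, and that call ended with ρ0 glucose replicate 3 left out (adjusted p = 0.0531), with ρ0 no glucose replicate 1 left out (0.0527) and in a fit to the 2 ρ0 groups (0.0547). The falls of the other 2 in ρ0 were lost in 6 of 12 repeats that left out 1 array and under 5 of 9 other settings for UPS1, and in 2 of 12 and 1 of 9 for MRPL32, whose groups overlapped. The call of UPS2 in ρ+ ended with ρ+ glucose replicate 3 left out (0.0711), with ρ+ no glucose replicate 2 left out (0.0571) and with poly-A scaling (0.0789). The median log2 difference of the 5 was −0.77 in ρ0 and −0.61 in ρ+, against −0.11 and −0.19 for all genes. Without glucose 1 was higher and 1 lower in ρ0 than in ρ+, each lost in 2 of 12 repeats, where 20.6% of all genes were higher and 9.4% lower. The higher gene, MGM1, averaged 9.93 in ρ0 and 3.97 in ρ+. Its single ρ+ arrays, at 2.65 to 4.72, lay below the detection level of 5.82. The call of the lower gene, UPS1, was also lost with poly-A scaling (limma adjusted p = 0.0575). In glucose none passed at a limma adjusted p under 0.05, where 5% of all genes were higher and 1.45% lower. At an unadjusted p under 0.05, 1 of the 5 passed, and the share of all genes at that level was not computed.

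**Figure D4:**
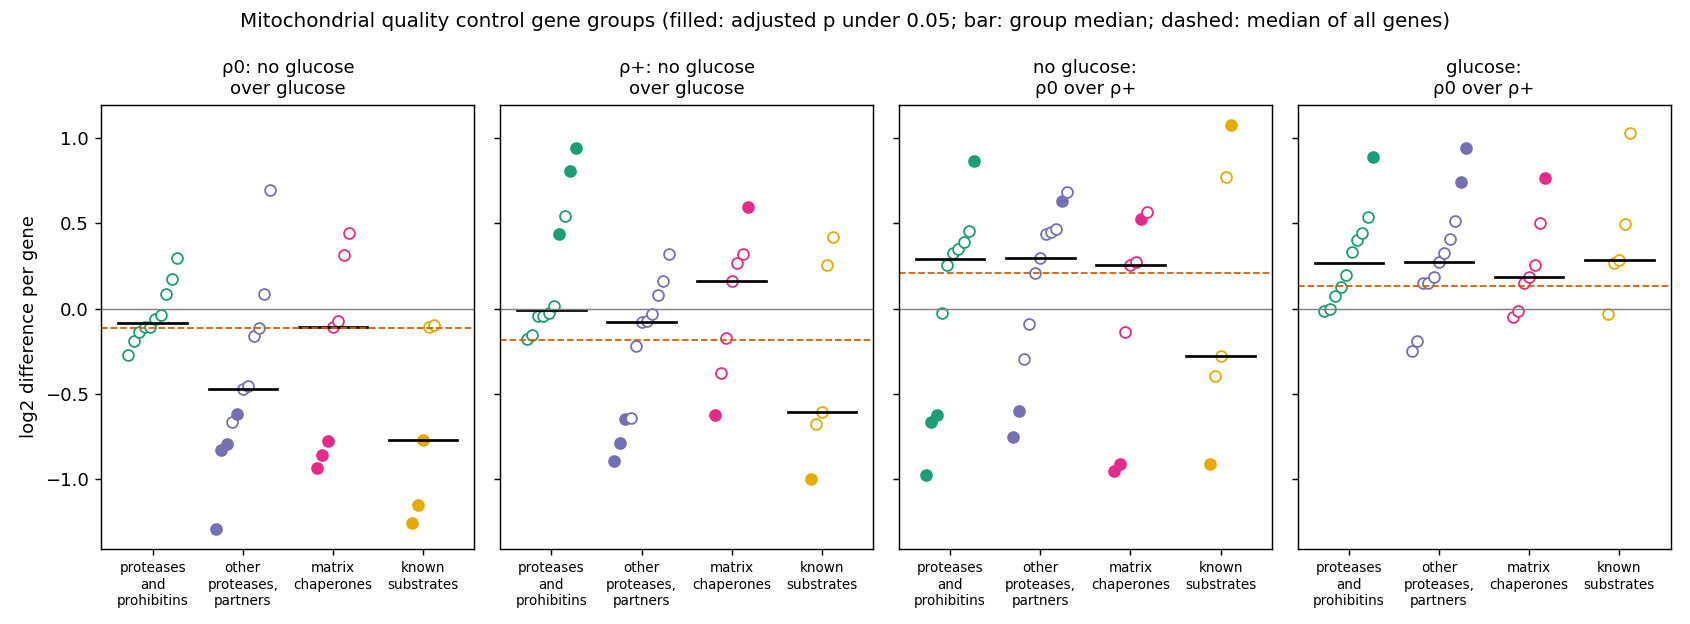
Log2 difference of each gene (1 point) in 4 comparisons for the 10 proteases and prohibitins, 11 other proteases and partners, 7 matrix chaperones and 5 known substrates. Filled points have an adjusted p under 0.05, bars are group medians and the dashed line is the median of all genes. For withdrawal, filled points of the proteases and prohibitins lie above 0 in ρ+ and none are filled in ρ0, while filled points of the other proteases and substrates lie below 0 in both strains.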

How the data were processed

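Signals of 12 single-colour Affymetrix yeast arrays were analysed. Total RNA was extracted with hot phenol, poly(A) RNA was purified, and biotin-labelled cRNA was hybridized, per the labels' protocols. The deposited table holds linear signal intensity values made by the authors with MAS5, according to the submitters' processing notes. Its version and scaling target are not stated in what was used here. The trimmed mean signal was 100.1 on every array.

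Of 9335 probe sets, 60 were controls, 6504 were annotated to 1 gene and 328 to several, which were not named. Symbols came from a RefSeq gene table, in which all 6504 were found. No genome build is stated, so no coordinates are given. A gene with several probe sets was represented by the brightest on average. Genes with a group mean above the 25th percentile of all signals (5.82) were tested, which left 5361 of 5656. Log2(signal + 1.498), the pseudocount being the 10th percentile, was fitted to 4 group means with limma 3.58.1 in R 4.3.3 (eBayes with trend, 8 residual degrees of freedom), so that differences of dim genes are understated. Benjamini-Hochberg adjustment ran over the 5361 genes, and adjusted p-values under 0.05 were called. The fit was checked on simulated data. Differences are ρ0 minus ρ+ and no glucose minus glucose. Replicates are biological per the labels, which tie no replicate number to a culture, so that p-values measure the spread between these samples.

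The 10 genes and the lists were chosen with earlier results of these data known. The text names all 10, from each further list and in each comparison at most 3 called genes, those with the largest differences, OLI1, and the 3 genes most correlated with each of the 4 members of widest range. Alternatives were a pseudocount 10 times as large, no filter on dim genes, quantile normalization, median centring, scaling to the poly-A controls, the mean of all probe sets of a gene, a fit to only the groups compared, leaving out each array, leaving out both arrays of low CreX signal, and the replicate number as a block.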

Additional observations from a re-analysis of the deposited data

Results flagged for a closer look

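The glucose response differed between ρ0 and ρ+ in the limma test of the difference itself for 4 of the 33 members and list genes tested. For each the log2 response, no glucose minus glucose, was lower in ρ0, either by a rise in ρ+ or by a fall in ρ0. Over all genes 6.92% were called, 5.35% lower and 1.57% higher. MGR1 differed by −1.05 on the log2 scale (limma adjusted p = 0.0496), as described with its values above. It rose by 0.94 in ρ+ and changed by less than its standard error in ρ0. MDJ1 differed by −1.20 (limma adjusted p = 0.0338), with −0.93 in ρ0 and 0.27 in ρ+. SOM1 differed by −0.94 (limma adjusted p = 0.0204), with −0.62 in ρ0 and 0.32 in ρ+. UPS1, for a lipid transfer protein that Yme1 degrades, differed by −1.19 (limma adjusted p = 0.047), with −0.77 in ρ0 and 0.42 in ρ+. For MDJ1, SOM1 and UPS1 the fall in ρ0 was called and the rise in ρ+ was not. The calls were not stable: leaving out 1 array at a time, MGR1 passed in 2 of 12 repeats, MDJ1 and UPS1 in 4 each and SOM1 in 10. The adjusted p reached 0.126 for MGR1, 0.0902 for MDJ1, 0.117 for UPS1 and 0.0649 for SOM1, and none passed with poly-A scaling. The difference stayed below 0 in each of these repeats.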

How the results depend on the processing

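With 12 arrays, calls near the threshold turned on single arrays, and the scaling moved the counts over all genes; the cause was not tested. Genes higher and lower were, for withdrawal in ρ0, 246 and 666 as reported, 444 and 382 with median centring, 96 and 291 with poly-A scaling, and 89 and 334 in a fit to the 2 groups. For withdrawal in ρ+ they were 561 and 1193, 807 and 548 with median centring, 426 and 414 with poly-A scaling, and 590 and 879 with quantile normalization. For ρ0 against ρ+ without glucose they were 1102 and 504, 442 and 740 with median centring, 713 and 538 with quantile normalization and 903 and 288 with poly-A scaling. In glucose they were 268 and 78, 118 and 160 with median centring, 138 and 104 with quantile normalization, and 354 and 22 with poly-A scaling. For the difference of the responses they were 84 and 287, and 9 and 179 with poly-A scaling. Members called in that test were 0, not 1, without the filter on dim genes, with quantile normalization, median centring or poly-A scaling and without both arrays of low CreX signal. With poly-A scaling 2 members passed between the strains in glucose and 2 without glucose. Leaving out 1 array at a time gave, for withdrawal in ρ0, 110 to 356 genes higher, 361 to 769 lower and 0 to 0 members called, and for withdrawal in ρ+ 407 to 633, 747 to 1355 and 2 to 4. The ranges were 701 to 1262, 392 to 567 and 3 to 5 for ρ0 against ρ+ without glucose, 116 to 284, 27 to 84 and 1 to 1 in glucose, and 32 to 134, 198 to 328 and 0 to 1 for the difference. The difference of PHB1 after withdrawal in ρ0, not called, ranged from −0.46 to 0.0091 and turned sign without ρ0 glucose replicate 3. No called difference of a named gene turned sign. The 24 member differences smaller than their standard error took the other sign in 79 of 499 repeats and were called in none. A pseudocount 10 times as large brought the MGR1 differences to 0.55 for withdrawal in ρ+, −0.57 for ρ0 against ρ+ without glucose and −0.61 for the difference of the responses. Deviations of arrays with the same replicate number correlated by −0.025 to 0.107 within ρ+ and by 2.3e-05 to 0.52 within ρ0. Arrays with different numbers gave −0.084 to 0.057 within ρ+ and −0.41 to 0.28 within ρ0. These ranges overlapped, so whether the numbers pair the samples could not be told, and the main fit used no block. With a replicate block, 152 genes had a higher response and 360 a lower one, 2 members passed for withdrawal in ρ+ (YME1 at an adjusted p of 0.0626 did not) and 5 for ρ0 against ρ+ without glucose (PCP1 at 0.0438 did).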
